A study of Rattus norvegicus with 9 samples.

Results

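Genes that mark quiescent hepatic stellate cells were followed across normal and cirrhotic rat liver: Lrat, Reln, Ecm1, Hand2, Hgf, Colec10, Colec11, Vipr1 and Cygb. They were taken by symbol as 9 of the 40154 gene rows of each library, and all 9 were expressed highly enough to be tested. Whole liver RNA came from wild type Sprague-Dawley rats aged 5 months, in 3 groups of 3 libraries. Normal rats had been given neither carbon tetrachloride (CCl4), a liver toxin used to cause cirrhosis, nor any injection. PBS rats were cirrhotic and were injected with phosphate-buffered saline. HepLPC rats were cirrhotic and were injected with rat HepLPCs, progenitor-like cells derived from hepatocytes. Injury and injection therefore cannot be told apart when either cirrhotic group is set against normal liver, and only the comparison of HepLPC with PBS keeps both in common. The question asked of the 9 genes was whether stellate cells appear lost in the injured livers or only changed in state.

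Stellate cells lie between the hepatocytes and the sinusoidal endothelium and store most of the body's vitamin A as retinyl ester in lipid droplets. On injury they lose these droplets, turn into contractile, collagen-producing myofibroblasts and deposit scar matrix. Lrat, lecithin retinol acyltransferase, makes the retinyl ester. Hgf encodes the ligand of the Met receptor, a growth signal for hepatocytes. Cygb encodes cytoglobin, a haem protein first described in rat as a protein associated with stellate cell activation. The genes are not confined to these cells in every case: hepatocytes also make Ecm1, and endothelial cells also make Hgf.

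Levels are given in RPKM, reads per kilobase of gene per M (mega) reads, which sets genes of different length on 1 scale. The libraries held 17.4 to 21.8 M reads, worked out from the steps of the RPKM values. Changes are log2 fold changes of RPKM + 1 from limma, with Benjamini-Hochberg adjusted p-values over 11124 genes, and a gene was called at an adjusted p under 0.05. The samples are numbered in the labels without being described as separate animals, and the p-values then cover only the spread among these samples, which may be in part technical. Of all genes tested, 11.3% were called between PBS and normal liver, 3.07% between HepLPC and PBS and 0.0809% between HepLPC and normal. Over all tested genes the median log2 fold change of PBS against normal was 0.184, and it was -0.044 once libraries were rescaled by the median of their ratios. The calls were 1157 higher and 105 lower before this rescaling and 530 higher and 276 lower after it. The 12 hepatocyte markers summed to at least 64900 RPKM in every library, and limma and voom called none of them with all libraries (2, 1 and 1 had an unadjusted p under 0.05 in the 3 comparisons). For PBS against normal, Ttr was called lower without the 2 libraries described next, and Ttr and Cyp2e1 with each library's length trend removed. The median of the 12 was -0.05, and -0.34 after rescaling.

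A pair of libraries stood apart by gene length. In PBS replicate 1, the shortest 10% of genes (median 666 bases) were at a median of 1.24 times the other PBS libraries, and the longest 10% (median 8450 bases) at 0.598 times. In HepLPC replicate 2 the same medians were 1.43 and 0.589. The rank correlation of a library's deviation with gene length, across genes that are not independent replicates, was -0.564 and -0.528 in these libraries and between -0.157 and 0.423 in the other 7. The results for long genes among the 9 rest in part on these libraries and are given with and without them.

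The promoters of Lrat, Hgf and Reln are shown because these 3 genes were the lowest of the 9, relative to the other libraries of the group, in PBS replicate 1 and in HepLPC replicate 2. Each sequence is the 250 bases before the gene's start in the rat assembly GRCr8, from RefSeq, read 5′ to 3′ on the gene's strand. They lie at chr2:170571213-170571462 (minus strand) for Lrat, chr4:19700468-19700717 (minus strand) for Hgf and chr4:13628318-13628567 (plus strand) for Reln. Capitals mark every match, on either strand, to 4 motifs: the E-box CANNTG, the AP-1 site TGANTCA, the hypoxia core ACGTG and the nuclear receptor core AGGTCA.
Lrat: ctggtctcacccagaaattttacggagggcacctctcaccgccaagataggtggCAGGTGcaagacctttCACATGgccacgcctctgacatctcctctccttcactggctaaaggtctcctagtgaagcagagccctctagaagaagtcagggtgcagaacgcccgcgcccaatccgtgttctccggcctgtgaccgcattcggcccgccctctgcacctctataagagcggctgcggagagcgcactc
Hgf: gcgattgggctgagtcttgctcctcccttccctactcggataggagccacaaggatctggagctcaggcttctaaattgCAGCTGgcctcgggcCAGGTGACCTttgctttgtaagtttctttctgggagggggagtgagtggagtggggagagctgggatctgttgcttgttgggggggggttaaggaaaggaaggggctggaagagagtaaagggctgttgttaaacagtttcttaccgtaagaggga
Reln: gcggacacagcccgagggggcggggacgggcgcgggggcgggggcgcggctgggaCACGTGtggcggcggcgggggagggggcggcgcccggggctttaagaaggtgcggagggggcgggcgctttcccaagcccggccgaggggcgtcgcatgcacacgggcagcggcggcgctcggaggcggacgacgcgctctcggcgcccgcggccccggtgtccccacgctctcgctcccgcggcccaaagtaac
Lrat held 2 E-boxes, and Hgf held 2 E-boxes of which 1 overlapped a nuclear receptor core. Reln held 1 E-box, which also contains the hypoxia core on both strands. Of 33469 rat promoters of the same length, 65.5% held an E-box, 6.34% an AP-1 site, 16.6% the hypoxia core and 14.1% the nuclear receptor core. The GC content was 59.2% for Lrat, 54% for Hgf and 80% for Reln, beside a median of 51.2% over all promoters. The 3 sequences thus differ widely in base composition, with 14, 4 and 41 CpG dinucleotides. Of the 9 genes, 7 matched a promoter entry, and Ecm1 was the only one of these 7 with an AP-1 site.

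Of the 9 genes, Cygb rose in the PBS livers and was lower in the HepLPC livers than in PBS. With all libraries in the fit, the other 8 were not called in any of the 3 comparisons. Between PBS and normal 1 of the 9 was called higher and 0 lower, where 10.4% of all genes were called higher and 0.944% lower, so this share is near the background. Between HepLPC and PBS 1 of the 9 was called lower, where 2.93% of all genes were. Between PBS and normal Cygb was also the only gene of the 9 whose groups did not overlap, whereas the groups did not overlap for 37.7% of all genes. The median log2 fold change of the 9 was 0.174 for PBS against normal, beside 0.184 for all genes, and -0.114 for HepLPC against PBS, beside -0.145. Between HepLPC and normal 0 of the 9 were called, where 0.036% of all genes were called lower; at an unadjusted p under 0.05 there were 2, Cygb and Ecm1, and limma voom on the recovered reads also called 0. For the 8 genes other than Cygb, the lower ends of the 95% intervals of PBS against normal lay between 0.752-fold and 0.95-fold. They lay between 0.61-fold and 0.836-fold after rescaling, and between 0.641-fold and 0.95-fold with each library's length trend removed. For HepLPC against normal they lay between 0.634-fold and 1.01-fold, and after rescaling between 0.645-fold and 0.912-fold. These are folds of RPKM + 1, which understate changes of low genes such as Hand2, Reln and Hgf. The summed RPKM of the 9 genes was 101 to 119 in normal, 118 to 132 in PBS and 125 to 139 in HepLPC libraries. Most of it came from Ecm1, which hepatocytes also make, and Colec11, at means of 45.4 and 29.1 RPKM in normal. Cygb had means of 2.14 in normal and 10.5 in PBS, and Ecm1 had a mean of 56.9 in HepLPC. The sum is therefore not a measure of stellate cell content. In bulk tissue, fewer cells of a type and less RNA per cell cannot be told apart.

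**Figure D1:**
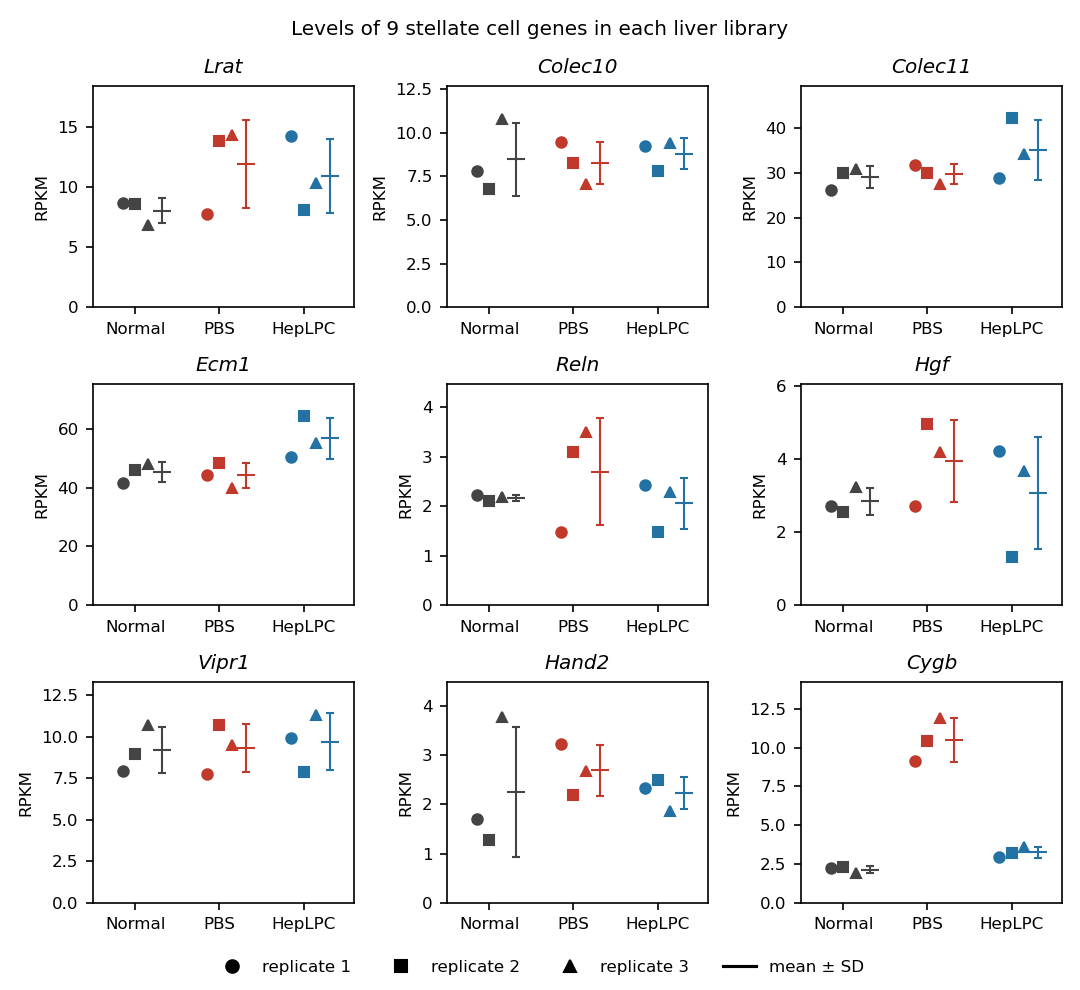
RPKM of each of the 9 genes in every library, by group, with the group mean and SD beside the 3 points (marker shape gives the replicate number). Cygb is the gene whose 3 PBS libraries, at 9.14 to 11.9 RPKM, lie apart from all others; Lrat, Reln and Hgf are lowest of their group in PBS replicate 1 and HepLPC replicate 2.

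Lrat, the vitamin A storage enzyme, stood at 8.63, 8.57 and 6.86 RPKM in normal liver, 7.74, 13.8 and 14.3 in PBS and 14.2, 8.11 and 10.3 in HepLPC (replicates 1, 2 and 3). The group means were 8.02 ± 1.01, 11.9 ± 3.64 and 10.9 ± 3.07 (SD, n = 3), from 739 to 1526 reads per library. PBS replicates 2 and 3 were above every normal library, and PBS replicate 1 lay among the normal libraries. The log2 fold change of PBS against normal was 0.48 (SE 0.25), with a 95% interval of 0.95-fold to 2.06-fold and an adjusted p of 0.246 by limma. Without PBS replicate 1 and HepLPC replicate 2 it was 0.74 (SE 0.15, adjusted p = 0.0156), a fit that called 4 of the 9 genes (Cygb, Lrat, Reln and Hgf) and 28.5% of all genes. The same fit called 3.51% of all genes between HepLPC and PBS and 0.144% between HepLPC and normal, and of the 9 it called Cygb alone in the first and none in the second. HepLPC and PBS differed by -0.11 on the log2 scale (adjusted p = 0.83), less than the spread within either group. The Lrat gene model is 5353 bases long, above 83.5% of the genes tested, and its level in PBS replicate 1 was 0.551 times that of the other PBS libraries. With each library's length trend removed, its log2 fold change of PBS against normal was 0.31 (adjusted p = 0.295).

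**Figure D2:**
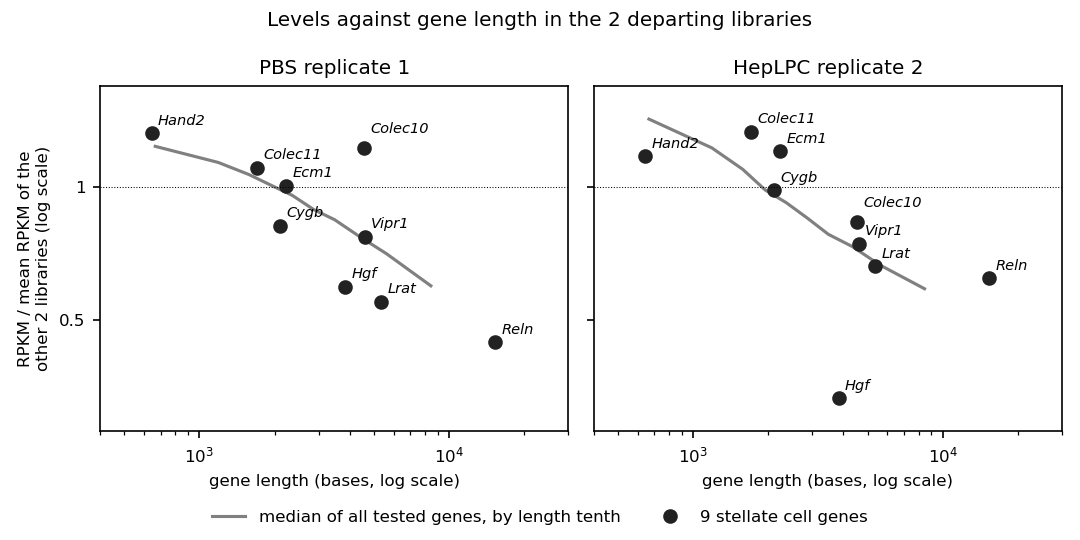
Level of each of the 9 genes in PBS replicate 1 (left) and HepLPC replicate 2 (right), as a ratio to the mean RPKM of the other 2 libraries of the group, against gene length (both axes on log scales). The grey line is the median of all tested genes in 10 bins of length; it falls from 1.24 to 0.598 on the left and from 1.43 to 0.589 on the right.

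The genes of the wider retinoid set carry, esterify, oxidise or sense vitamin A. Of 37 genes, 30 were tested, and 4 were called higher and 0 lower between PBS and normal. Of all genes 10.4% were called higher and 0.944% lower, so this share is near the background. The median log2 fold change of the 30 was 0.07, below the 0.184 of all genes. Between HepLPC and PBS limma called 0, where it called 3.07% of all genes. Limma voom on recovered reads also called 0, and by limma 13 of 30 had an unadjusted p under 0.05. The genes called higher were Lpl, lipoprotein lipase, Rarg, a retinoic acid receptor, Ces1d, a carboxylesterase, and Cyp26a1, the hydroxylase that breaks down retinoic acid. Lpl rose from 1.08 ± 0.00926 to 8.22 ± 3.36 RPKM, a log2 fold change of 2.09 (SE 0.28, adjusted p = 0.00188). Cyp26a1 was at 1.77, 3.67 and 1.13 RPKM in normal and 8.41, 7.5 and 4.69 in PBS, so the groups did not overlap. Its log2 fold change of 1.35 had an adjusted p of 0.0413 and lost its call in 11 of 18 alternative settings, as did Ces1d, while Rarg lost it in 9. The count of higher genes was 1 after rescaling, with 2 lower, and without the 2 libraries that stood apart it was 6, with 3 lower. Without PBS replicate 3 alone 1 gene was called, and without HepLPC replicate 2 alone 11 were. With each library's length trend removed 2 were called higher (Lpl and Rarg) and 4 lower (Ttr, Rbp4, Rdh16 and Rxrg).

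Rbp4, Aldh1a1, Dhrs3 and Rarb, retinoid genes of the fixed panel, were not called with all libraries and no further scaling. Rbp4, the plasma carrier made by hepatocytes, had a log2 fold change of -0.33 (adjusted p = 0.364), and -0.53 (adjusted p = 0.037) with the length trend removed. For Aldh1a1, a retinaldehyde dehydrogenase, HepLPC against PBS gave -1.74 (adjusted p = 0.064), with no overlap between those groups. HepLPC replicate 2 was the lowest at 29.2 RPKM, beside 84.2 and 85.8 in the other HepLPC libraries, and without it and PBS replicate 1 the value was -1.12 (adjusted p = 0.124). Of 18 alternatives 2 called Aldh1a1 lower: the fit without PBS replicate 2 and that with the replicate number as a block (adjusted p = 0.0437 and 0.0337). Dhrs3, which reduces retinaldehyde, gave 0.08 for PBS against normal (adjusted p = 0.78), and Rarb, a receptor induced by retinoic acid, -0.14 (adjusted p = 0.74). Pnpla3, a lipase that releases retinol from its ester, was chosen after its values were seen. It stood at 21.5, 46.4 and 98.4 RPKM in normal and 7.36, 6.31 and 9.08 in PBS, and the log2 fold change of -2.48 had an adjusted p of 0.0822; the normal libraries themselves spread widely. Without PBS replicate 1 and HepLPC replicate 2 it was called lower, at -2.46 (adjusted p = 0.0188).

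The collectins Colec10 and Colec11 encode secreted lectins that bind microbial sugars and start the lectin pathway of complement. Colec10 stood at 7.81, 6.78 and 10.8 RPKM in normal, 9.45, 8.25 and 7.05 in PBS and 9.22, 7.79 and 9.39 in HepLPC. Colec11 stood at 26.2, 30 and 30.9, then 31.8, 29.9 and 27.4, then 28.9, 42.1 and 34.1 in the same order. For both genes the PBS and normal libraries were interleaved. The log2 fold change of PBS against normal was -0.02 for Colec10 (95% interval -0.41 to 0.37, adjusted p = 0.959) and 0.03 for Colec11 (-0.31 to 0.37, adjusted p = 0.919). HepLPC against PBS gave 0.09 (adjusted p = 0.816) and 0.22 (adjusted p = 0.52). Among 11 tested genes of the collectins and the lectin pathway, 0 were called in the 3 comparisons by limma or by voom, and 0 had an unadjusted p under 0.05. Of all genes limma called 11.3% for PBS against normal, 3.07% for HepLPC against PBS and 0.0809% for HepLPC against normal. For PBS against normal 1 was called after rescaling, 1 with the length trend removed and 1 without a filter on low values. The panel gene Masp1, the protease that these lectins carry, had a log2 fold change of -0.23 for PBS against normal (adjusted p = 0.408), and was called lower after rescaling (-0.51, adjusted p = 0.0488) and with the length trend removed (-0.38, adjusted p = 0.0305).

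Ecm1, a secreted protein of the extracellular matrix, had the highest level of the 9 genes in every group. It stood at 41.8, 46.2 and 48.3 RPKM in normal, 44.5, 48.6 and 39.9 in PBS and 50.7, 64.5 and 55.5 in HepLPC. Every HepLPC library was above every other library. Its log2 fold change was 0.35 for HepLPC against PBS (SE 0.13, adjusted p = 0.232) and 0.32 for HepLPC against normal (adjusted p = 0.526), so neither difference passed the test. PBS and normal differed by -0.04 (adjusted p = 0.894), with a 95% interval from -0.33 to 0.26. Ecm1 and Cygb were the 2 genes of the 9 whose groups did not overlap between HepLPC and PBS, where 18.4% of all genes did not. The same 2 genes did not overlap between HepLPC and normal, where the share of all genes was 15.8%.

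Reln encodes reelin, a large secreted glycoprotein, and has the longest gene model of the 9 at 15319 bases. Its levels were 2.22, 2.11 and 2.18 RPKM in normal, 1.48, 3.1 and 3.51 in PBS and 2.43, 1.47 and 2.28 in HepLPC. The normal libraries lay close together, at 2.17 ± 0.0537, while the PBS libraries fell on both sides of them. The log2 fold change of PBS against normal was 0.17 (SE 0.23, adjusted p = 0.657). Without the pair of libraries that stood apart it was 0.44 (adjusted p = 0.0188), and with the length trend removed 0.05 (adjusted p = 0.829). Reln in PBS replicate 1 was at 0.446 times the other PBS libraries, the lowest of the 9 genes there. HepLPC against PBS gave -0.24 (adjusted p = 0.625).

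Hgf stood at 2.71, 2.54 and 3.22 RPKM in normal, 2.71, 4.94 and 4.18 in PBS and 4.22, 1.31 and 3.66 in HepLPC. HepLPC replicate 2 was the lowest of the 9 libraries, at 0.332 times the other HepLPC libraries, which was further from 1 than any of the other 8 genes in that library. The log2 fold change was 0.35 for PBS against normal (SE 0.30, adjusted p = 0.495) and -0.34 for HepLPC against PBS (95% interval -1.01 to 0.32, adjusted p = 0.603). Without the 2 libraries these were 0.54 (adjusted p = 0.0206) and -0.17 (adjusted p = 0.474). HepLPC and normal differed by 0.01 (adjusted p = 0.997).

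Of 16 genes of the Hgf pathway, 14 were tested, and 2 were called higher and 0 lower between PBS and normal. Of all genes 10.4% were called higher and 0.944% lower, so this share is near the background. The proteins of the 2 called genes act on the protease step that turns the Hgf precursor into active ligand. Spint1, an inhibitor of the Hgf activator, was at 0.122, 0.13 and 0.151 RPKM in normal, 3.34, 3.62 and 4.1 in PBS and 0.294, 0.44 and 0.396 in HepLPC. It rested on 6, 7 and 8 reads in the normal libraries and passed the filter on low values through its PBS libraries alone. The 3 groups did not overlap. Its log2 fold change was 2.04 for PBS against normal (adjusted p = 6.36e-05) and -1.77 for HepLPC against PBS (adjusted p = 0.000723). St14, the membrane protease matriptase, gave 1.44 (adjusted p = 0.0047) and -1.03 (adjusted p = 0.0502, and 0.0419 and 0.0369 without PBS replicate 1 and PBS replicate 2). Both proteins are also made by bile duct epithelium, whose summed markers were at 14.1 to 16.6 RPKM in normal, 57.9 to 193 in PBS and 14.8 to 27.7 in HepLPC; the part of duct cells in these values was not tested. The receptor Met had a log2 fold change of 0.0027 (adjusted p = 0.997) for PBS against normal. Without the 2 libraries that stood apart, 6 of the 14 were called higher, Hgf and Met among them, where 28.5% of all genes were called.

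Vipr1, a receptor for vasoactive intestinal peptide, stood at 7.95, 8.98 and 10.7 RPKM in normal, 7.79, 10.7 and 9.5 in PBS and 9.95, 7.91 and 11.3 in HepLPC. The 3 groups covered nearly the same range. Its log2 fold changes were 0.02, 0.05 and 0.07 for PBS against normal, HepLPC against PBS and HepLPC against normal, with adjusted p of 0.962, 0.893 and 0.933. Hand2, a basic helix-loop-helix transcription factor of mesenchymal cells, stood at 1.71, 1.28 and 3.76, then 3.22, 2.18 and 2.67, then 2.33, 2.49 and 1.87 RPKM. It rested on 18 to 52 reads per library, the fewest of the 9 genes, and normal replicates 2 and 3 were the lowest and the highest of all libraries. The log2 fold change of PBS against normal was 0.25 with a 95% interval from -0.32 to 0.81 (adjusted p = 0.567). Of 7 tested genes for reelin receptors and adaptors, vasoactive peptide receptors and globins, Cygb, Sctr and Fyn were called higher between PBS and normal. Of all genes 10.4% were called higher. Sctr, the secretin receptor of bile ducts, gave 1.47 (adjusted p = 0.016), and Fyn, a kinase downstream of reelin, 0.50 (adjusted p = 0.0472), a call lost in 13 of 18 alternatives. Cygb and Sctr were also called lower in HepLPC than in PBS, and the call of Sctr was lost in 14 of 18 alternatives. Sctr stood at 0.307, 0.332 and 0.182 RPKM in normal, 1.28, 5.07 and 2.17 in PBS and 0.317, 0.0863 and 0.576 in HepLPC. It passed the filter on low values through its PBS libraries alone, so its calls are in part set by the filter.

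Cygb was at 2.23, 2.3 and 1.9 RPKM in normal liver, 9.14, 10.4 and 11.9 in PBS and 2.94, 3.23 and 3.62 in HepLPC. The group means were 2.14 ± 0.217, 10.5 ± 1.4 and 3.26 ± 0.34 (SD, n = 3), from 86 to 498 reads per library. The 3 groups did not overlap, and the PBS mean was 4.89 times the normal mean. The log2 fold change of PBS against normal was 1.86 (SE 0.13, adjusted p = 0.000206), and PBS was higher in 3 of 3 libraries. HepLPC against PBS gave -1.43 (SE 0.13, adjusted p = 0.00187), and the HepLPC mean was 0.311 times the PBS mean. Both calls held in 18 of 18 alternatives. Cygb stood 1.52 times higher in HepLPC than in normal by the ratio of means, a log2 fold change of 0.44 with an adjusted p of 0.348. In the order of mean levels among the 9 genes Cygb lay with Reln and Hand2 at the low end in normal liver, where these 3 did not differ beyond their spread. In PBS its mean lay between those of Lrat and Vipr1. Its length of 2112 bases is above 39% of the genes tested, and its ratio to the other libraries was 0.819 in PBS replicate 1 and 0.985 in HepLPC replicate 2.

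**Figure D3:**
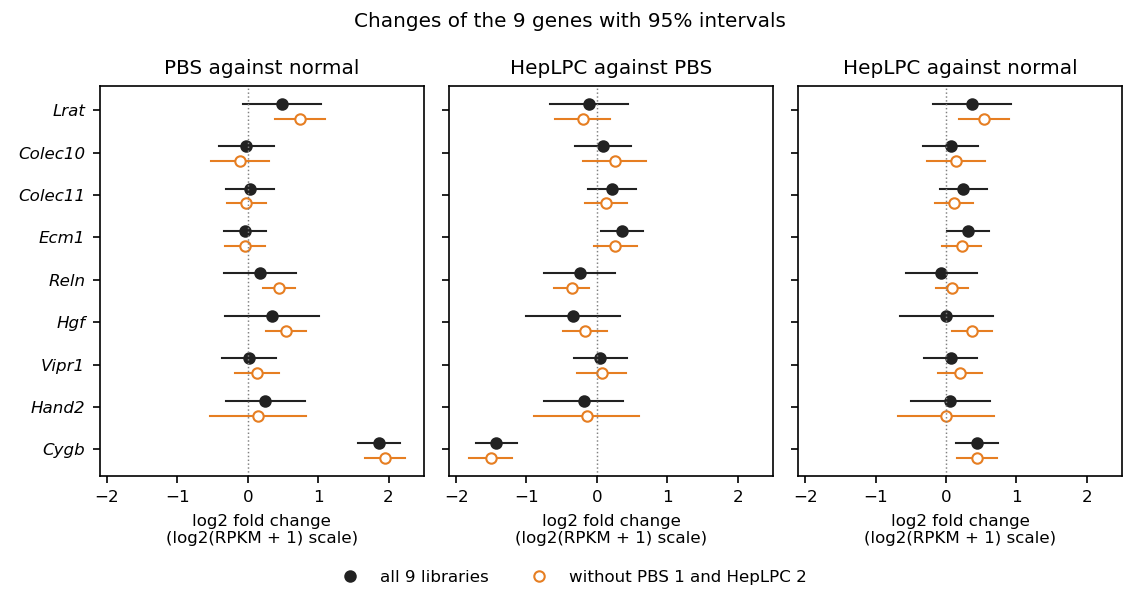
Log2 fold change, on the log2(RPKM + 1) scale, of each of the 9 genes in the 3 comparisons, with 95% intervals, over all libraries and without PBS replicate 1 and HepLPC replicate 2. Cygb lies at 1.86 and -1.43 in the first 2 comparisons; Lrat, Reln and Hgf move away from 0 for PBS against normal when the 2 libraries are left out.

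Other genes known from stellate cells included several that rose in PBS. Of 30 further stellate cell markers 25 were tested, and 9 were called higher and 0 lower between PBS and normal. Of all genes 10.4% were called higher and 0.944% lower, so 0 lower is near the background. The median log2 fold change of the 25 was 0.41, beside 0.184 for all genes. The 4 with the smallest adjusted p were Adamtsl2, Des, Dcn and Tcf21. Adamtsl2, a secreted regulator of transforming growth factor beta, was at 0.816, 0.51 and 0.606 RPKM in normal, 7.85, 8.29 and 11.6 in PBS and 1.4, 1.2 and 2.46 in HepLPC. The order of its groups was the same as for Cygb. It was the only 1 of the 25 called lower in HepLPC than in PBS (-1.94, adjusted p = 0.00241), where 2.93% of all genes were. Without PBS replicate 1 and HepLPC replicate 2 there were 4, Adamtsl2, Pdgfra, Prelp and Des. Des, the intermediate filament desmin, gave 0.89 for PBS against normal (adjusted p = 0.00372), Dcn, the matrix proteoglycan decorin, 1.89 (adjusted p = 0.00681) and Tcf21, a transcription factor of stellate cells, 1.01 (adjusted p = 0.0119). Pdgfra, a growth factor receptor, gave 0.78 (adjusted p = 0.042, lost in 12 of 18 alternatives) and its relative Pdgfrb 0.52 (adjusted p = 0.221). The count of 9 was 3 after rescaling, 3 without PBS replicate 3 and 13 without the pair of libraries that stood apart.

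Most tested genes of activated stellate cells and myofibroblasts rose in PBS. Of 21 tested, 15 were called higher in PBS than in normal and 0 lower, with a median log2 fold change of 1.1. Of all genes 10.4% were called higher and 0.944% lower. Between HepLPC and PBS 7 were called lower, with a median of -0.65, where 2.93% of all genes were called lower. This count of 7 was 2 after rescaling and 1 without either PBS replicate 3 or HepLPC replicate 1. A gene could pass the filter on low values through its 3 PBS libraries alone. Loxl1 did so, at 0.206 to 0.418 RPKM in normal, 2.29 to 4.07 in PBS and 0.422 to 0.717 in HepLPC. Such a gene could enter only as higher in PBS, so these counts and medians are in part set by the filter. Col1a1, which encodes a fibrillar collagen chain of scar matrix, was at 0.353, 0.181 and 0.248 RPKM in normal, 3.62, 10.2 and 7.72 in PBS and 0.862, 0.656 and 1.91 in HepLPC. Its log2 fold changes were 2.61 for PBS against normal (adjusted p = 0.00113) and -1.88 for HepLPC against PBS (adjusted p = 0.016, lost in 3 of 18 alternatives). Col3a1, another fibrillar collagen, gave 2.2 (adjusted p = 0.000394) and -0.92 (adjusted p = 0.0468, lost in 16 of 18). Loxl1, an enzyme that crosslinks elastin, gave 1.71 (adjusted p = 0.000579) and -1.41 (adjusted p = 0.00492). Vim, the filament vimentin, gave 1.62 (adjusted p = 0.00108) and -1.19 (adjusted p = 0.0135, lost in 4). Acta2, the smooth muscle actin of myofibroblasts, gave 1.19 (adjusted p = 0.0126) and -0.65 (adjusted p = 0.21). In HepLPC against normal, limma and voom called 0 genes of these 2 lists with all libraries, and limma called 1, Mmp2, higher without PBS replicate 1 and HepLPC replicate 2. At an unadjusted p under 0.05 there were 12 of the 21 activated genes and 9 of the 25 other markers, so the activated genes were not shown to be at normal levels.

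**Figure D4:**
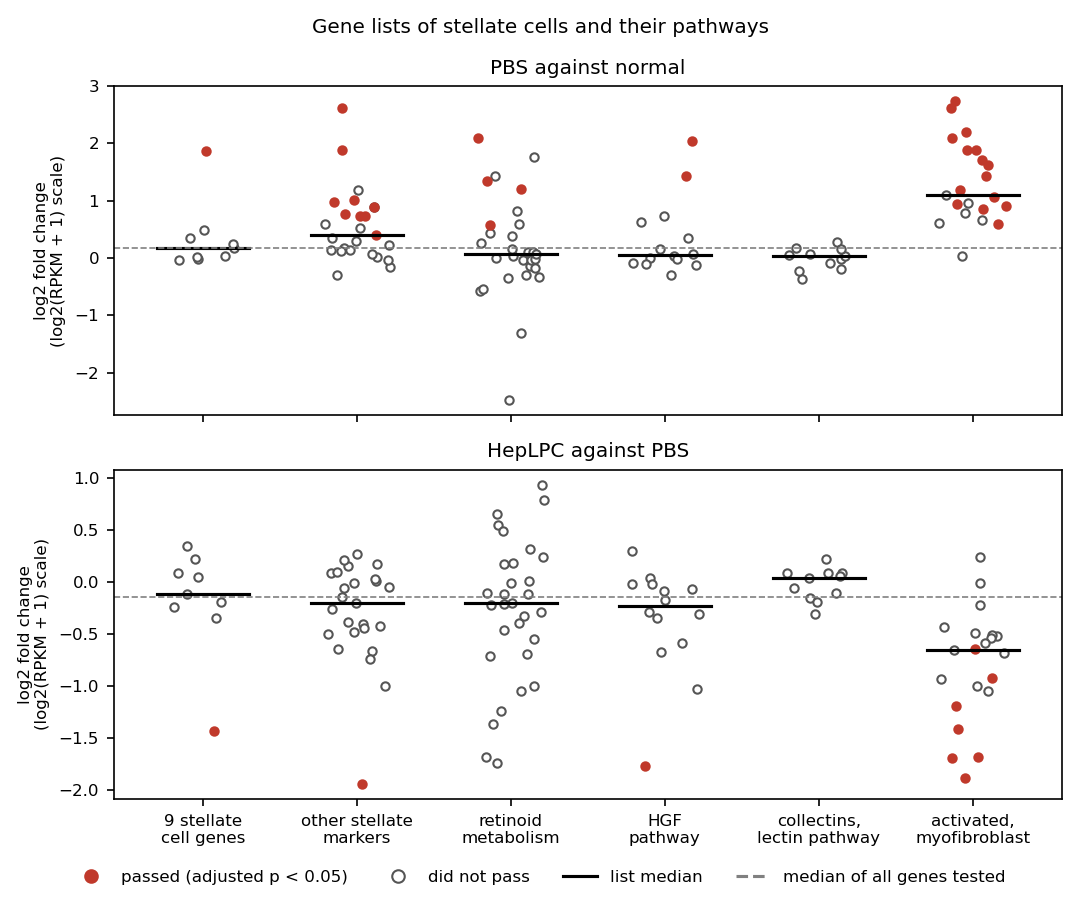
Log2 fold change, on the log2(RPKM + 1) scale, of every tested gene of 6 lists, 1 point a gene, with the median of each list and of all tested genes. For PBS against normal the median of the 9 genes (0.174) lies beside that of all genes (0.184), and that of the activated genes is 1.1.

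Activation genes and Cygb were set against Lrat within each library, since a ratio of this kind does not depend on how a library was scaled. The ratio of Cygb to Lrat was 0.259, 0.269 and 0.277 in normal, 1.18, 0.751 and 0.837 in PBS and 0.208, 0.398 and 0.352 in HepLPC. That of Col1a1 to Lrat was 0.0409, 0.0211 and 0.0361, then 0.467, 0.738 and 0.542, then 0.0608, 0.0809 and 0.186. For both ratios all PBS libraries were above all others. The mean log2 difference of PBS from normal was 1.76 for Cygb and 4.18 for Col1a1, each with a 2-sided exact permutation p of 0.1, the smallest that 3 against 3 libraries allow (0.18 adjusted over 9 tests). The ratio of Acta2 to Lrat overlapped between PBS and normal, with a difference of 1.28 (exact permutation p = 0.2). Lrat was at 0.551 and 0.663 times the other libraries of its group in PBS replicate 1 and HepLPC replicate 2, which enters every ratio in those libraries. Col1a1 rested on 41, 23 and 31 reads in the normal libraries. The ratios are of RPKM with no 1 added, so the difference of 4.18 leans on these low values.

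**Figure D5:**
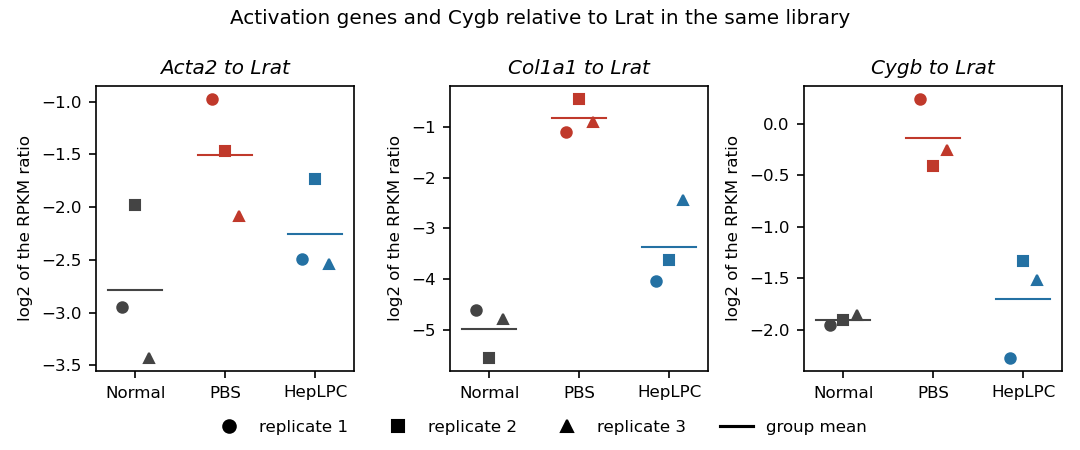
Ratio of the RPKM of Acta2, Col1a1 and Cygb to that of Lrat in each library (log scale), by group. For Col1a1 and Cygb the 3 PBS libraries lie above the other 6, and for Acta2 the PBS and normal libraries overlap.

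The genes most like Cygb and Lrat were sought by the root mean square difference of centred log2(RPKM + 1) over the 9 libraries. Closest to Cygb, whose own root mean square was 0.803, were Ppp1r1b at 0.0939, Sox9 at 0.11, Sox4 at 0.133, Smoc2 at 0.144 and Pdzk1ip1 at 0.148. Sox9, a transcription factor on the cholangiocyte marker list that activated stellate cells also make, had mean levels of 0.0747, 2.51 and 0.3 RPKM in normal, PBS and HepLPC. Ppp1r1b and Pdzk1ip1 were also low outside PBS, at means of 0.0646 and 0.138 RPKM in normal and 0.351 and 0.479 in HepLPC. At these levels Sox9, Ppp1r1b and Pdzk1ip1 could not have passed the filter on low values without their PBS libraries. Changes on the scale of RPKM + 1 understate such low genes, so their nearness to Cygb is in part set by the filter and the scale. Closest to Lrat, at 0.353, were Dcun1d3 at 0.121, Snx18 at 0.134, Ap3b1 at 0.138, Pip5k1a at 0.152 and Supt16h at 0.153. None of these 5 is on the lists of stellate cell genes. The distances include PBS replicate 1 and HepLPC replicate 2, where Lrat was at 0.551 and 0.663 times the other libraries of its group. The part of gene length in the likeness to Lrat was not tested.

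Markers of other liver cells were measured beside these changes. For the counts below, 10.4% of all genes were called higher in PBS than in normal and 2.93% lower in HepLPC than in PBS. Of the tested cholangiocyte markers 8 of 9 were called higher in PBS than in normal, and 8 were called lower in HepLPC than in PBS. Sox9, called in both comparisons, was at means of 0.0747 RPKM in normal and 0.3 in HepLPC. It passed the filter on low values through its PBS libraries alone, so these counts are in part set by the filter. The 11 markers summed to 14.1 to 16.6 RPKM in normal, 57.9 to 193 in PBS and 14.8 to 27.7 in HepLPC. As for Cygb, PBS lay above the other groups, but unlike for Cygb the normal and HepLPC sums overlapped. Krt19, the duct keratin, gave 3.06 for PBS against normal (adjusted p = 0.00372). Of 12 macrophage markers 1 was called higher, and their sum was 252 to 341, 423 to 593 and 284 to 420 RPKM. Clec4f, a Kupffer cell lectin, gave 0.59 (adjusted p = 0.0605, and 0.0449 without HepLPC replicate 2). Of 15 tested sinusoidal endothelial markers limma and voom called 0 between PBS and normal (1 at an unadjusted p under 0.05), with sums of 165 to 181, 173 to 191 and 155 to 174 RPKM, and Stab2, a scavenger receptor of that endothelium, gave 0.49 (adjusted p = 0.318), and 0.75 (adjusted p = 0.0145) without PBS replicate 1 and HepLPC replicate 2. Of other endothelial markers 1 of 7 was called higher and of lymphocyte markers 1 of 5. Of 22 markers of portal fibroblasts, mesothelium and vascular smooth muscle 6 were tested, and Msln, Eln, Krt19 and Des were called higher in PBS. Dpt was called lower without the 2 libraries that stood apart and with the length trend removed. The list's sum was 230 to 279 RPKM in normal and 192 to 236 in PBS. Msln, Eln, Krt19 and Des are a small part of it, at means of 0.104, 0.701, 0.644 and 1.17 RPKM in normal. Msln passed the filter on low values through its PBS libraries alone. Msln, the mesothelial protein mesothelin, gave 2.57 (adjusted p = 0.00113), and Mfap4 was at 0 in every library. The part of these cells in the changes of Cygb and the activation genes was not tested.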

How the data were processed

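Liver RNA was sequenced in 9 libraries, 3 per group, and grouped by the sample titles. The authors deposited 1 table of RPKM values per library, per the file headers. HISAT2, StringTie and the human build hg19 are listed per the submitters' processing notes, whereas the rows carry rat symbols, so build and annotation are uncertain. Strand and paralog handling are not given in the sources used here. Reads and gene lengths were recovered from the RPKM steps (100% of 20959 genes above 0 in 3 or more libraries, tolerance 0.01). No replicate pair agreed within sampling noise.

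The 11124 genes reaching 1 RPKM or more in at least 3 libraries were fitted with limma 3.58.1 (R 4.3.3, lmFit and eBayes with trend, 2-sided) on log2(RPKM + 1). Genes reaching 1 RPKM in the PBS libraries alone, such as Loxl1, Spint1, Sctr, Sox9 and Msln, pass this filter only because they are high there. They add to the counts of genes higher in PBS than in normal and lower in HepLPC than in PBS. The 9 libraries entered 1 model with 6 residual degrees of freedom, tested on simulated data. Fold changes on this scale understate those of low genes. In 18 alternatives 1 choice was changed at a time, with 1 added after seeing the data: removal of each library's length trend. The 9 genes and the lists were chosen with earlier results of these data known. Named were the 9 genes, a fixed panel of 16, the called genes of each list that is not a cell type list (4 at most), and 5 genes nearest to Lrat and to Cygb. A gene of the panel is not reported here. Of 235 list genes, 231 matched by symbol and 2 by synonym.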

Additional observations from a re-analysis of the deposited data

How the results depend on the processing

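Cygb kept both of its calls in 18 of 18 alternatives, at 1.63 to 2.28 for PBS against normal and -1.68 to -1.22 for HepLPC against PBS. Of 1242 values of single genes under an alternative, 1063 kept direction and side of the threshold, 101 lost the call, 16 gained it and 62 changed sign, of which 0 were called. Where no value is named as the cause, the cause was not tested. The count of genes called for PBS against normal (1262) was 806 rescaled, 714 by quantile normalization and 3168 without PBS replicate 1 and HepLPC replicate 2, where 4 of the 9 genes were called. Leaving out single libraries gave 562 (PBS replicate 3) to 1809 (HepLPC replicate 2). For HepLPC against PBS (341) it was 181, 213 and, with only the 2 groups, 86, and 90 (without PBS replicate 3) to 398 (without PBS replicate 1). For HepLPC against normal (9) it was 3 by quantile normalization or with the length trend removed, 0 without a filter or with voom, 16 without the 2 libraries, and 1 to 14 leaving out 1. With the replicate number as a block the counts were 787, 198 and 1. The deviations of same-numbered libraries from their group means correlated between -0.412 and 0.31. The length departure of PBS replicate 1 and HepLPC replicate 2 enters these values, so whether the numbers pair the samples cannot be told from them.

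The sign changes were all of values that were not called. For PBS against normal, rescaling gave Reln -0.0318, Colec11 -0.246, Vipr1 -0.242, Dhrs3 -0.202 and Met -0.265. Quantile normalization gave Reln -0.0876, Hand2 -0.014, Colec11 -0.131, Vipr1 -0.202 and Met -0.178. Removing the length trend gave Colec11 -0.178, Vipr1 -0.162, Dhrs3 -0.126 and Met -0.16. Met was -0.00128 with a pseudocount of 0.1 and -0.000503 with voom, and Colec11 was -0.0183 without the 2 libraries. For HepLPC against PBS, Lrat was 0.101 rescaled, 0.0248 by quantiles and 0.0858 with the length trend removed, and Hand2 was 0.0397 by quantiles. For HepLPC against normal, Hgf was -0.0363 (pseudocount 0.1), -0.0442 (rescaled), -0.0328 (quantiles), -0.05 (voom) and -0.00859 (length trend). Reln was 0.0813 without the 2 libraries and 0.0379 with the length trend removed, where Hand2 was -0.11. Colec10 was -0.00247 and Vipr1 -0.00195 by quantiles.

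Leaving out 1 library gave these ranges across 0. For PBS against normal they were -0.102 to 0.0362 (Ecm1), -0.149 to 0.152 (Colec10), -0.0386 to 0.0866 (Colec11), -0.0769 to 0.127 (Vipr1), -0.0682 to 0.22 (Dhrs3) and -0.153 to 0.282 (Met). For HepLPC against PBS they were -0.375 to 0.06 (Lrat), -0.564 to 0.0239 (Hgf), -0.00926 to 0.179 (Colec10, and 0.256 without both PBS replicate 1 and HepLPC replicate 2) and -0.0597 to 0.178 (Vipr1). For HepLPC against normal they were -0.155 to 0.0813 (Reln), -0.159 to 0.372 (Hand2), -0.218 to 0.37 (Hgf), -0.0618 to 0.239 (Colec10) and -0.0375 to 0.194 (Vipr1). Hand2 has the fewest reads of the 9 genes, at 18 to 52.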
